A study of Mus musculus with 33 samples.

Results

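A set of 10 genes of the Slit-Robo and netrin guidance systems were followed across whole embryonic kidneys of mice with and without Six2, a homeodomain transcription factor that keeps nephron progenitors undifferentiated. The 10 genes were taken by name from a table of raw read counts for 35349 gene symbols: the ligands Slit2, Slit3, Ntn1 and Ntn4, and the receptors Robo1, Robo2, Unc5b, Unc5c, Unc5d and Neo1. All 10 were present and all 10 passed the filter on low counts at both stages. The groups were kidneys at embryonic day 15.5 (E15.5) with 1 inactive copy of Six2 (heterozygous, 4 specimens) or with none (wild type, 4 specimens), and kidneys at E11.5 with 2 inactive copies (knockout, 5 embryos), with 1 (heterozygous, 5 embryos) or with none (wild type, 6 embryos). There was no knockout group at E15.5. The genotype labels name neither an allele nor a mouse strain, the titles of 4 E15.5 heterozygous libraries begin with GCE without a word on what it stands for, and the labels do not say whether a specimen is 1 animal or a pool, so that p-values measure the spread between specimens. Knockout embryos were 4 female and 1 male, heterozygous embryos 2 and 3, and wild-type embryos 4 and 2; at E15.5 each genotype had 1 female and 3 males.

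Slits are secreted proteins that bind Robo receptors and repel growing axons and migrating cells. In the mouse kidney, Slit2 from the nephric duct and ureteric bud acts on Robo2 in the nephrogenic mesenchyme, and loss of either gene lets extra ureteric buds form because the Gdnf-expressing mesenchyme is not held back. Netrins are secreted laminin-related proteins, read by Dcc and Neo1 (neogenin) as attractive cues and by the Unc5 receptors as repulsive ones; netrin-1 is made by the stroma of the developing mouse kidney and bears on how its vessels are laid out.

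Total counts ran from 10.82 to 42.07 in units of 1000000 counts over the 33 libraries, and runs of the same specimen were summed to 24 specimens. Levels are given as counts per 1000000 counts (CPM) after scaling of library sizes. Six2 itself followed the labels, with 0.278 to 0.644 CPM in knockout, 9.96 to 16.5 in heterozygous and 19.6 to 31.7 in wild-type embryos at E11.5, and with 5.84 to 6.63 CPM in heterozygous and 11.2 to 13.0 CPM in wild-type specimens at E15.5. Markers of the kidney's nephron progenitors, ureteric bud, stroma and endothelium were present in every group. Markers of skeletal muscle and cartilage were present too, led by Col2a1, with a mean of 491 CPM in wild-type kidneys at E11.5 and 59.1 CPM at E15.5. The E11.5 libraries came in 2 labelled batches, which the first principal component (34.9% of the variance) separated. In batch 1, counts of ribosomal RNA genes took 0.879% to 12.5% of the reads in knockout, 3.57% to 18.7% in heterozygous and 20.5% to 26.6% in wild-type libraries, against at most 0.469% in batch 2. Batch was therefore in the E11.5 model, and the calls between knockout and wild-type kidneys are also given within each batch. Batch 1 held 3 knockout, 3 heterozygous and 3 wild-type libraries. Batch 2 held 2 knockout, 3 heterozygous and 3 wild-type libraries, so its fits rest on few embryos. Wild-type embryo 6 stood apart from the other 5 in guidance genes outside the 10, as described further on.

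Robo2 had the lowest adjusted p of the 10 genes between knockout and wild-type kidneys, and its promoters are shown for that reason. It lies on chromosome 16 at chr16:73891839-74411825 on the minus strand (mm10, ENSMUSG00000052516). RefSeq (GRCm38.p6) places several transcription starts for the gene, some upstream of these coordinates. The 250 bases before a start at the annotated 5′ end (chr16:74411826-74412075) and before another further upstream (chr16:75092771-75093020) read, 5′ to 3′ on the minus strand, as follows.
Robo2 near start: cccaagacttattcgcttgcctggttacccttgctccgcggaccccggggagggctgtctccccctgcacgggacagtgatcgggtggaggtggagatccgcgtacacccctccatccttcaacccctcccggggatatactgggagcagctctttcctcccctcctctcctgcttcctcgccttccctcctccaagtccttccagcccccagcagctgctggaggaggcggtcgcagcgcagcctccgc
Robo2 upstream start: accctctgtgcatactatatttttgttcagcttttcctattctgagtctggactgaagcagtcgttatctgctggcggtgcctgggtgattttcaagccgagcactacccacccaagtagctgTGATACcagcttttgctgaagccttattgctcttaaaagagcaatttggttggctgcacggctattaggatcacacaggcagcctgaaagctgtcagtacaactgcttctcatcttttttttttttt
Capitals mark TGATAC, a core sequence recognised by the homeodomains of Six2 and its relatives. A search of both strands found it 122 to 127 bases before the upstream start and not in the near window. A Robo2 window still further upstream (chr16:75447294-75447543), not printed here, did not hold it either. TGATAC occurred in 1 of the 10 windows held for 8 of the genes, and in 4.64% of 32851 promoter windows of the same length. TCAGGTTTC, a spelling of the MEF3 site bound by the relatives of Six2, occurred in none of the 10 windows and in 0.387% of all windows. A match is a stretch of letters, not a binding site, and its absence from these windows says nothing about the factor; Ntn1 and Unc5d had no window.

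Between knockout and wild-type kidneys at E11.5, 4 of the 10 genes changed: Robo2 and Ntn1 fell, and Unc5d and Slit2 rose. Across all 16141 genes tested, 7.14% were called in this comparison by edgeR's quasi-likelihood test at a Benjamini-Hochberg adjusted p under 0.05, with 499 higher and 654 lower. The median log2 fold change of the 10 genes was -0.014, against -0.0021 for all genes. Between knockout and heterozygous kidneys, which share the knockout embryos with the comparison above, Robo2 fell and Unc5d rose, 2 of the 10, where 3.77% of all genes were called.

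**Figure D1:**
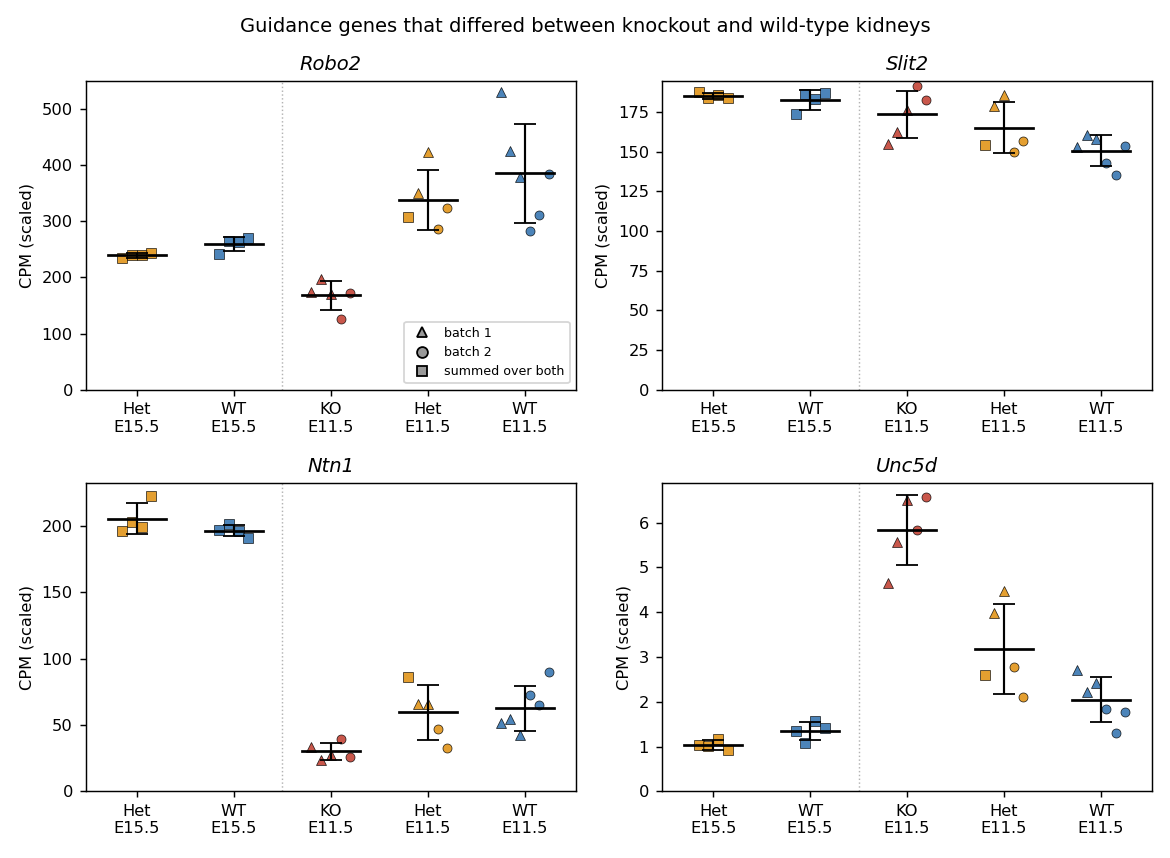
Level in CPM (linear axis from 0) of Robo2, Slit2, Ntn1 and Unc5d in each specimen, by genotype and stage; the marker shape gives the labelled batch, the horizontal line the group mean and the bar its SD. Knockout points lie below all wild-type points for Robo2 and Ntn1 and above all of them for Unc5d, and 4 of 5 knockout points lie above all wild-type points for Slit2.

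Robo2 is the receptor through which Slit2 limits ureteric budding. Its level was 175, 197, 171, 126 and 173 CPM in the knockout embryos, 308, 350, 424, 286 and 323 CPM in the heterozygous embryos, and 530, 426, 379, 282, 311 and 384 CPM in the wild-type embryos. Every knockout embryo was below every embryo of the other genotypes, while heterozygous and wild-type embryos overlapped. Means were 168 ± 25.9 CPM in knockout (SD, n = 5), 338 ± 53.1 CPM in heterozygous (n = 5) and 385 ± 88.1 CPM in wild-type embryos (n = 6). The log2 fold change was -1.20 ± 0.11 (SE) for knockout against wild type (adjusted p = 3.57e-06), a level 0.436 times that of wild type with a 95% interval (from the SE by the normal quantile) of 0.374 to 0.507. It was -1.03 ± 0.12 for knockout against heterozygous (adjusted p = 9.32e-05). The change was close in size within the batches, at -1.28 ± 0.13 in batch 1 and -1.09 ± 0.15 in batch 2 for knockout against wild type. An exact two-sided permutation test of log2 CPM gave p = 0.00433 against wild type, the smallest that its 462 splits allow.

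The fall of Robo2 went with lower nephron progenitor markers. The summed level of 15 such markers was 585 to 723 CPM in knockout, 1137 to 1574 CPM in heterozygous and 1192 to 1721 CPM in wild-type embryos, and 11 of the 15 fell in knockout against wild-type kidneys. In whole kidneys, fewer progenitor cells and less Robo2 RNA per cell cannot be told apart. The 3 genes whose level over the 16 E11.5 embryos was most like that of Robo2, after sex and batch were removed, were Meox2, Spock2 and Dock5 (Pearson's r = 0.98 each, over embryos that share the genotype groups). Spock2 is in the progenitor list. In knockout against wild-type kidneys Meox2 fell by 3.22 on the log2 scale, Spock2 by 2.47 and Dock5 by 1.73, each more than Robo2. Genotype was left in when these genes were picked, so their shared direction with Robo2 follows from the choice.

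Robo1, the relative of Robo2 that lies beside it on chromosome 16 (chr16:72308306-73046095, plus strand), did not pass the test. It averaged 161 ± 21.7 CPM in knockout, 181 ± 25.5 CPM in heterozygous and 172 ± 11.6 CPM in wild-type embryos, and the groups overlapped. Its log2 fold change for knockout against wild type was -0.05 ± 0.07 (adjusted p = 0.730), a 95% interval of 0.874 to 1.06 times the wild-type level. Whether the values of Robo1 and Robo2 differ was not tested.

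Slit2, the Robo2 ligand made by the ureteric epithelium, lies at chr5:47983138-48307733 (plus strand). Its level was 155, 163, 176, 192 and 183 CPM in the knockout embryos, 155, 179, 186, 150 and 157 CPM in the heterozygous embryos, and 153, 161, 158, 143, 135 and 153 CPM in the wild-type embryos. Of the knockout embryos, 4 of 5 lay above every wild-type embryo and the other within the wild-type range. For knockout against wild type the log2 fold change was 0.24 ± 0.06 (adjusted p = 0.0320), 1.18 times the wild-type level. Batch 2, with 2 knockout and 3 wild-type embryos, carried the call (0.41 ± 0.07, adjusted p = 0.0201). Batch 1, with 3 of each, gave 0.09 ± 0.06 with an adjusted p of 0.569. The call was lost without knockout embryo 3, 4 or 5 or wild-type embryo 2, 4 or 5, with log2 fold changes of 0.18 to 0.24 and an adjusted p of at most 0.133. With the letter and number that begin the library titles (title letters below) as block in place of batch it was 0.15 ± 0.08 (adjusted p = 0.311). A single such start, that of knockout embryos 2, 3 and 5, occurs on knockout embryos only. That fit therefore sets only knockout embryos 1 and 4 against another genotype. Against heterozygous kidneys the Slit2 value was 0.13 ± 0.07 (adjusted p = 0.352).

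The ureteric bud markers moved in the same comparison, with 3 of 13 higher and 2 lower. Their summed level was 400 to 615 CPM in knockout and 343 to 694 CPM in wild-type embryos, so the groups overlapped, and the part of these markers in the Slit2 value was not tested. The genes whose level was most like that of Slit2 over the 16 embryos were Calb1 (r = 0.88), a ureteric bud marker, Cftr (r = 0.88) and Pax8 (r = 0.86), an early nephron marker. In knockout against wild-type kidneys all 3 rose, by 0.88 ± 0.14, 1.05 ± 0.24 and 0.91 ± 0.18 on the log2 scale. They were picked over the same embryos with genotype left in, so a direction shared with Slit2 is built into the choice.

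Slit3, a Slit whose loss in mice causes diaphragmatic hernia and kidney defects, lies at chr11:35121224-35708507 (plus strand) and did not differ detectably between the genotypes. It averaged 86.4 ± 13.3 CPM in knockout, 87.0 ± 9.11 CPM in heterozygous and 90.3 ± 18.8 CPM in wild-type embryos. The log2 fold change for knockout against wild type was -0.06 ± 0.12 (adjusted p = 0.842), which leaves room for 0.809 to 1.14 times the wild-type level.

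Ntn1, the gene of netrin-1, lies at chr11:68209364-68400823 (minus strand). Its level was 33.6, 24, 27.4, 39.4 and 26.2 CPM in the knockout embryos, 86.5, 66.1, 65.6, 47.1 and 32.7 CPM in the heterozygous embryos, and 51.7, 54.8, 42.2, 72.8, 64.8 and 89.7 CPM in the wild-type embryos. All knockout embryos lay below all wild-type embryos, and 3 of 5 lay below all heterozygous embryos. Means were 30.1 ± 6.3 CPM in knockout, 59.6 ± 20.5 CPM in heterozygous and 62.7 ± 17.0 CPM in wild-type embryos, so the wild-type spread was wide. The log2 fold change for knockout against wild type was -0.95 ± 0.22 (adjusted p = 0.0124), 0.518 times the wild-type level with a 95% interval of 0.386 to 0.696. Against heterozygous kidneys it was -0.78 ± 0.24 (adjusted p = 0.0939).

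Batch 1 alone gave a Ntn1 difference between knockout and wild-type kidneys of -0.77 ± 0.14, which passed the test (adjusted p = 0.0109). Batch 2 alone, with 2 knockout and 3 wild-type embryos, gave -1.18 ± 0.37, which did not pass (adjusted p = 0.211). With the title letters as block in place of batch the Ntn1 difference was -0.43 ± 0.29 (adjusted p = 0.416), with fewer knockout embryos set against another genotype. Without the libraries above 5% ribosomal counts it was -1.23 ± 0.30 (adjusted p = 0.0679), with 3 wild-type embryos left, all of batch 2, and 4 knockout embryos. Without knockout embryo 5, the only male knockout, it was -0.70 ± 0.22 (adjusted p = 0.0840). Wild-type embryo 6 had the highest Ntn1 level of the wild-type group; without it the value was -0.80 ± 0.20 and the call held (adjusted p = 0.0218). The renal stroma markers, which belong to the cells known to make netrin-1, had a summed level of 4199 to 5503 CPM in knockout and 3558 to 5992 CPM in wild-type embryos, and 1 of the 12 rose. The genes most like Ntn1 over the 16 embryos were Adamts17 (r = 0.94), Ebf2 (r = 0.93) and Gramd4 (r = 0.92). In knockout against wild-type kidneys Adamts17 fell by 1.13 and Ebf2 by 1.21 on the log2 scale, while Gramd4 stood at -0.17 ± 0.06 (adjusted p = 0.0843). Here too the choice of genes, made with genotype left in, favours the direction of Ntn1.

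Ntn4 encodes netrin-4, which binds laminin and loosens basement membranes, and was a minor transcript at E11.5 (chr10:93640681-93747207, plus strand). It averaged 3.51 ± 0.880 CPM in knockout, 3.52 ± 1.24 CPM in heterozygous and 4.36 ± 1.7 CPM in wild-type embryos. Knockout against wild type stood at a log2 fold change of -0.31 ± 0.24 (adjusted p = 0.523), and -0.16 ± 0.24 without wild-type embryo 6, which had 7.50 CPM against 2.62 to 4.76 CPM in the other 5.

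Unc5d, a receptor of the Unc5 family that also binds Flrt proteins in the mouse brain, lies at chr8:28646717-29219636 (minus strand). Its level was 4.66, 5.56, 6.50, 5.84 and 6.57 CPM in the knockout embryos, 2.60, 3.99, 4.48, 2.77 and 2.10 CPM in the heterozygous embryos, and 2.70, 2.23, 2.41, 1.84, 1.30 and 1.78 CPM in the wild-type embryos. Every knockout embryo was above every other embryo, and 3 of 5 heterozygous embryos were above every wild-type embryo. These levels rest on few reads, 60 to 114 counts per specimen in knockout, 45 to 106 in heterozygous and 25 to 41 in wild-type embryos. Knockout against wild type gave a log2 fold change of 1.56 ± 0.18 (adjusted p = 2.77e-05), 2.96 times the wild-type level with a 95% interval of 2.32 to 3.77. Batch 1 alone gave 1.21 ± 0.21 and batch 2 alone 1.95 ± 0.25, and both passed the test. Against heterozygous kidneys it was 1.00 ± 0.19 (adjusted p = 0.00695). That call held within batch 2 (1.39 ± 0.24, adjusted p = 0.0455) but not within batch 1 (0.55 ± 0.20, adjusted p = 0.137). In batch 1 all knockout embryos were female and all heterozygous embryos male, so sex and genotype cannot be told apart there. The call was also lost without knockout embryo 5 (0.85 ± 0.23, adjusted p = 0.0999) and with the title letters as block (0.49 ± 0.27, adjusted p = 0.265).

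Early nephron markers moved with Unc5d in part: 5 of 11 rose and 2 fell in knockout against wild-type kidneys, with summed levels of 442 to 587 CPM in knockout and 371 to 520 CPM in wild-type embryos. Macrophage markers rose in 8 of 9 cases, with sums of 98.1 to 224 CPM in knockout and 69.2 to 136 CPM in wild-type embryos. Neuron and glia markers summed to 338 to 479 CPM in knockout and 143 to 451 CPM in wild-type embryos, with 1 of 17 higher. No defining marker of these 3 lists was at 0 in a group, and their part in the Unc5d result was not tested. The genes most like Unc5d over the 16 embryos were Klhl14, Pik3r1 and Clec18a (r = 0.95, 0.95 and 0.94). They rose by 1.15, 0.73 and 2.66 on the log2 scale in knockout against wild-type kidneys, a direction that follows from picking them with genotype left in.

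The other netrin receptors did not pass the test in either comparison of the knockout. Neo1, which reads netrins and repulsive guidance molecules and lies at chr9:58874687-59036441 (minus strand), averaged 283 ± 4.49 CPM in knockout, 291 ± 9.94 CPM in heterozygous and 282 ± 21.8 CPM in wild-type embryos. Its interval for knockout against wild type, 0.954 to 1.09 times the wild-type level, was the narrowest of the 10 genes on the log2 scale. Unc5b, a receptor known from blood vessels (chr10:60762593-60831581, minus strand), averaged 122 ± 10.4 CPM in knockout, 117 ± 16.5 CPM in heterozygous and 113 ± 26.1 CPM in wild-type embryos, with a log2 fold change of 0.14 ± 0.14 against wild type (adjusted p = 0.624). Endothelial markers gave 0 of 11 calls. Unc5c, the receptor mutated in the mouse rostral cerebellar malformation (chr3:141465216-141834924, plus strand), averaged 424 ± 65.8 CPM in knockout, 461 ± 83.9 CPM in heterozygous and 420 ± 88.4 CPM in wild-type embryos, and its log2 fold change was 0.03 ± 0.07 (adjusted p = 0.862). Its exons share 118 bases with the antisense gene Gm15688; whether counting used strand is not given in the sources used here, so reads in that stretch cannot be assigned. The other 9 genes share no exon bases with another annotated gene.

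**Figure D2:**
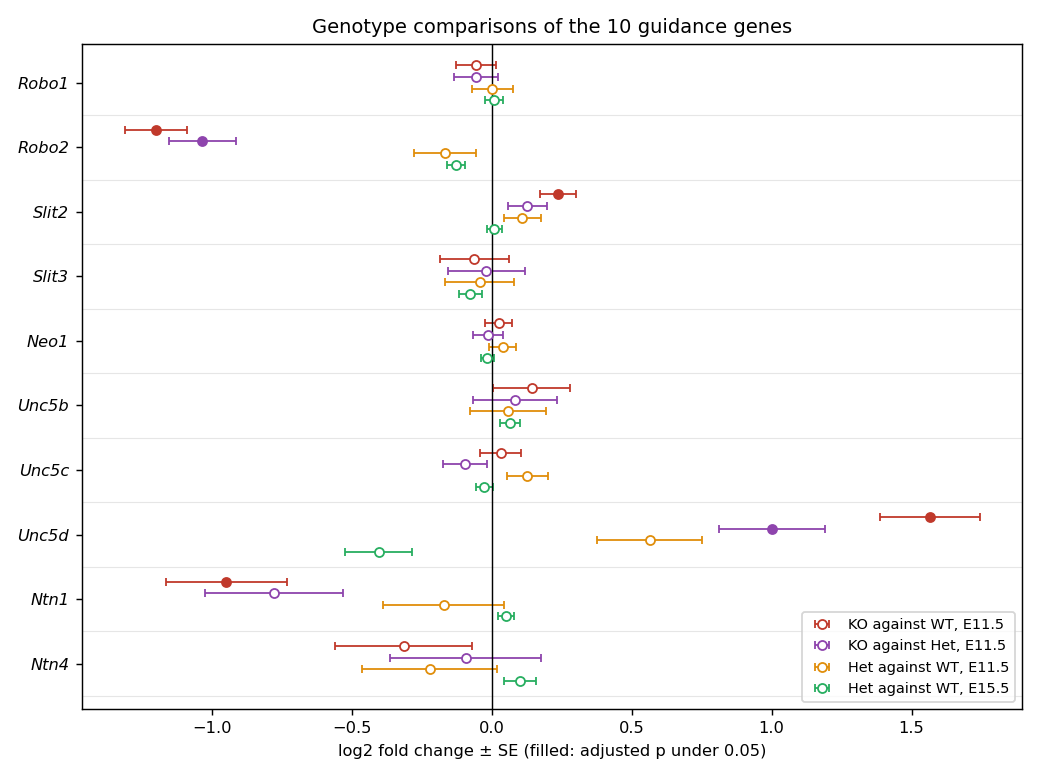
Log2 fold change ± SE (points and bars) of the 10 genes in knockout against wild type, knockout against heterozygous, and heterozygous against wild type at E11.5 and at E15.5; filled points have an adjusted p under 0.05. The filled points are those of Robo2, Slit2, Unc5d and Ntn1 in knockout against wild type and of Robo2 and Unc5d in knockout against heterozygous kidneys.

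The 10 genes did not vary together among the 16 E11.5 embryos. As a description over embryos that share genotype groups, with sex and batch removed, Robo2 and Unc5d ran opposite (r = -0.84) and Slit2 and Unc5d together (r = 0.82). With the genotype means also removed, the pair Robo2 and Unc5d stood at 0.29 and the pair Slit2 and Unc5d at 0.78. Slit3, Unc5b and Neo1 formed a group that varied together within genotypes, with r = 0.84 for Slit3 and Unc5b, 0.84 for Unc5b and Neo1 and 0.70 for Slit3 and Neo1. Robo2 ran against that group within genotypes, with r = -0.84 to Slit3, -0.69 to Unc5b and -0.68 to Neo1. The pairs named were picked after the values of all pairs of the 10 genes were seen. Robo1 also varied within genotypes with Slit2 (r = 0.68), Unc5c (r = 0.62) and Unc5d (r = 0.60).

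Loss of 1 Six2 copy at E11.5 called none of the 10 genes, where 0.0681% of all genes were called (11 of 16141). DESeq2 called none of the 10 either, and 1 of them, Unc5d, had an unadjusted p under 0.05. Unc5d stood at 0.56 ± 0.19 on the log2 scale in heterozygous against wild-type kidneys (unadjusted p = 0.00812, adjusted p = 0.460). Its mean of 3.19 ± 1.00 CPM in heterozygous embryos lay between 5.82 ± 0.780 CPM in knockout and 2.04 ± 0.503 CPM in wild-type embryos. For Robo2 the heterozygous value was -0.17 ± 0.11 (adjusted p = 0.697), with a 95% interval of 0.766 to 1.04 times the wild-type level. The other 8 genes ranged from -0.22 for Ntn4 to 0.13 for Unc5c.

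At E15.5 heterozygous kidneys again gave no call among the 10 genes, where 0.57% of all genes were called (104 of 18244); 2 of the 10, Robo2 and Unc5d, had an unadjusted p under 0.05. Robo2 was 234, 240, 241 and 244 CPM in heterozygous specimens and 242, 264, 262 and 270 CPM in wild-type specimens. The lower 3 heterozygous specimens lay below all wild-type specimens. The log2 fold change was -0.13 ± 0.03 (adjusted p = 0.177), DESeq2 called it (adjusted p = 0.0286), and edgeR did so without wild-type specimen 1 (-0.16 ± 0.03, adjusted p = 0.0346). Unc5d was 1.03, 1.01, 1.17 and 0.917 CPM in heterozygous specimens and 1.36, 1.09, 1.56 and 1.41 CPM in wild-type specimens, with a log2 fold change of -0.40 ± 0.12 (adjusted p = 0.279). Here too 3 of the 4 heterozygous specimens lay below all wild-type specimens.

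The heterozygous value of Unc5d thus had opposite signs at the 2 stages, and the difference was tested in a model of all 24 specimens. The difference (E15.5 minus E11.5) was -0.95 ± 0.24 on the log2 scale with an unadjusted p of 0.00053 and an adjusted p of 1, so it did not pass. None of the 10 genes passed that test, by edgeR or by DESeq2, and Unc5d was the only gene of the 10 with an unadjusted p under 0.05. Of all genes, 0.00576% were called (1 of 17362).

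Between wild-type kidneys of the 2 stages, 9 of the 10 genes differed, 3 higher and 6 lower at E15.5, where 66.1% of all genes were called. A share of this size makes a call between stages the usual outcome for a gene, so the sizes carry the description. The median log2 fold change was -0.34 over the 10 genes and -0.0027 over all genes. As their runs were matched here, the E15.5 specimens were each run in both batches of their stage. At E11.5 a single heterozygous embryo was run in both batches of that stage. The library titles of the 2 stages belong to different series, and the labels do not say that a batch was shared between them. Stage and run therefore cannot be told apart.

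The ligands parted in direction. Ntn1 rose by the largest factor: it had 197, 201, 196 and 191 CPM at E15.5 and 42.2 to 89.7 CPM at E11.5, with a log2 fold change of 1.56 ± 0.19 (adjusted p = 1.86e-07). Ntn4 rose likewise, with 10.8, 11.5, 10.9 and 12 CPM at E15.5 and 2.62 to 7.50 CPM at E11.5 (1.43 ± 0.20, adjusted p = 1.37e-06). Slit3 fell, with 36.2, 36.5, 35.0 and 39.7 CPM at E15.5 and 63.9 to 115 CPM at E11.5 (-1.32 ± 0.12, adjusted p = 1.68e-09). None of these 3 genes overlapped between the stages, and neither did Slit2, Robo1, Robo2, Unc5c or Neo1. The share of such genes over the whole table was not counted. Slit2 rose by 0.23 ± 0.06 (adjusted p = 0.00223), with 174 to 187 CPM at E15.5 and 135 to 161 CPM at E11.5. In the heterozygous kidneys Ntn1 averaged 206 ± 11.8 CPM and Slit3 35.3 ± 1.25 CPM at E15.5, close to the wild-type specimens of that stage.

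Most receptors were lower at E15.5. Unc5c fell by 0.72 on the log2 scale, with 246 to 271 CPM at E15.5 and 326 to 523 CPM at E11.5. Robo2 fell by 0.58, with 242 to 270 CPM at E15.5 and 282 to 530 CPM at E11.5, so that the wild-type E15.5 level still lay above the knockout level of E11.5. Robo1 fell by 0.44 (127 to 141 CPM at E15.5, 159 to 191 CPM at E11.5) and Neo1 by 0.25 (239 to 247 CPM at E15.5, 254 to 308 CPM at E11.5). Unc5d fell by 0.71 ± 0.17 (adjusted p = 0.00103), and its stages overlapped, with 1.09 to 1.56 CPM at E15.5 and 1.30 to 2.70 CPM at E11.5. With batch 2 alone at E11.5, an alternative chosen after seeing the data, that Unc5d value was -0.36 ± 0.18 (adjusted p = 0.0844), and with batch 1 alone it was -1.0 ± 0.2. Unc5b was 118 to 128 CPM at E15.5 and 69.3 to 135 CPM at E11.5 and was not called (0.11 ± 0.13, adjusted p = 0.459).

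Markers of other cell types moved between the stages too. Of the neuron and glia markers 16 of 17 fell, with sums of 34.0 to 41.1 CPM at E15.5 and 143 to 451 CPM at E11.5 in wild-type kidneys. Ureteric bud markers rose in 10 of 13 cases, with sums of 957 to 1004 CPM at E15.5 and 343 to 694 CPM at E11.5. The part of these cell types in the stage differences of the 10 genes was not tested.

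**Figure D3:**
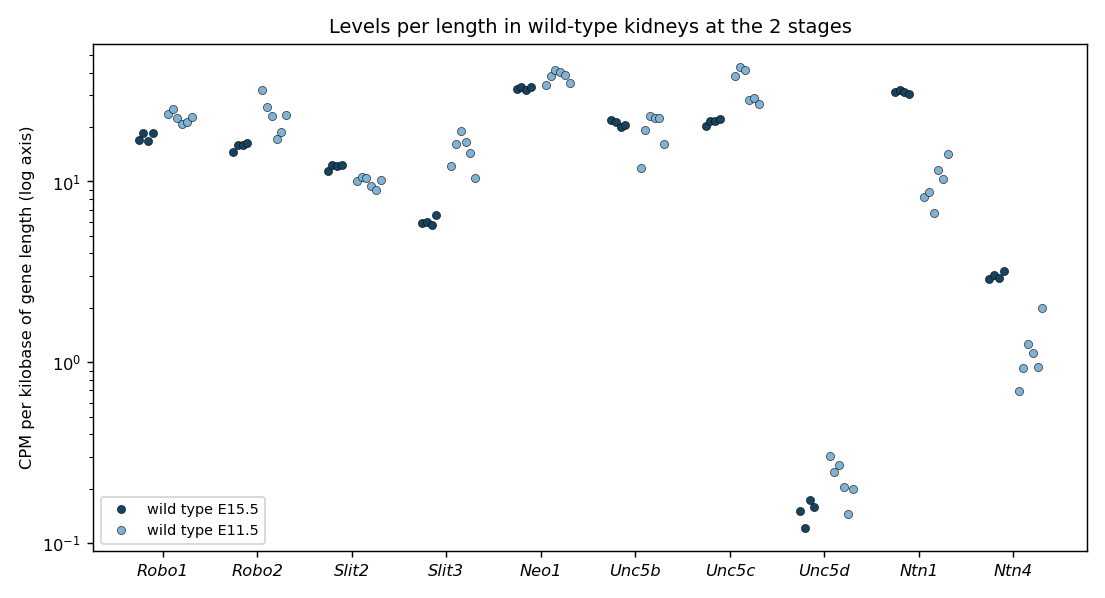
CPM per kilobase of gene length (log axis) of the 10 genes in each wild-type specimen at E15.5 and at E11.5. Ntn1 and Ntn4 stand higher at E15.5 and Slit3 lower, each without overlap, as is also so for Slit2, Robo1, Robo2, Unc5c and Neo1. Unc5b and Unc5d overlap between the stages, and Unc5d is the lowest gene at both.

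Per length, the 10 genes spanned a wide range of levels. In wild-type kidneys at E15.5 the order in CPM per kilobase, by the deposited gene lengths, was Neo1 (32.7 ± 0.601), Ntn1 (31.3 ± 0.656), Unc5c (21.4 ± 0.841), Unc5b (21.0 ± 0.785), Robo1 (17.7 ± 0.921), Robo2 (15.7 ± 0.734), Slit2 (12.1 ± 0.415), Slit3 (6.03 ± 0.331), Ntn4 (3.01 ± 0.143) and Unc5d (0.152 ± 0.0221) (SD, n = 4). Of these neighbours, Unc5c and Unc5b were closer than the larger of their SDs. At E11.5 the order was Neo1 (38.1 ± 2.94), Unc5c (34.4 ± 7.26), Robo2 (23.3 ± 5.33), Robo1 (22.7 ± 1.53), Unc5b (19.2 ± 4.44), Slit3 (14.8 ± 3.08), Ntn1 (9.97 ± 2.70), Slit2 (9.96 ± 0.643), Ntn4 (1.16 ± 0.453) and Unc5d (0.229 ± 0.0562) (SD, n = 6). There Neo1 and Unc5c, Robo2 and Robo1, Robo1 and Unc5b, Unc5b and Slit3, and Ntn1 and Slit2 were each closer than the larger SD of the pair. In knockout embryos Robo2 stood at 10.2 ± 1.56 and Ntn1 at 4.79 ± 1.00 (SD, n = 5), and by these lengths Robo2 lay below Robo1 (21.2 ± 2.86) there. In CPM the knockout means were 168 for Robo2 and 161 for Robo1. The deposited length is 7592 bases for Robo1 and 16546 for Robo2, while their exons in GENCODE vM21 cover 16511 and 16983 bases. Slit2 (15125 against 25433) and Unc5c (12188 against 19135) differ too, so the order depends on the lengths used.

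The wider pathway was read from 49 further genes in 3 lists, of which 46 were tested at E11.5: other ligands, other receptors and intracellular partners. In knockout against wild-type kidneys none rose and 4 fell, 8.70% of those tested, where 7.14% of all genes were called. Without wild-type embryo 6, an alternative chosen after seeing the data, the same 4 fell and Dag1, the dystroglycan that binds Slits, rose by 0.25 ± 0.06 (adjusted p = 0.0197), against 0.16 with all embryos (adjusted p = 0.306). Flrt1, a membrane protein of a family that binds Unc5 and Robo receptors, fell by 0.68 (adjusted p = 0.000906), with 18.6, 18.4, 19.7, 18.4 and 20.9 CPM in the knockout embryos and 23.7 to 39.4 CPM in the wild-type embryos. Cxcr4, the chemokine receptor whose signal Slits can dampen and which is also in the early nephron list, fell by 0.71 (adjusted p = 0.00739). Myo10, a motor protein that carries netrin receptors in filopodia, fell by 0.33 (adjusted p = 0.00847), and Srgap1, a GTPase-activating protein that binds Robo1, by 0.35 (adjusted p = 0.0368).

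In knockout against heterozygous kidneys 2 of the 46 fell, 4.35%, where 3.77% of all genes were called: Flrt1 by 0.60 (adjusted p = 0.0111) and Myo10 by 0.37 (adjusted p = 0.0143). In heterozygous against wild-type kidneys none of the 46 was called at E11.5, where the share over all genes was 0.0681%. At E15.5, of 47 tested and with 0.57% called over all genes, Ablim1, an actin-binding protein related to the netrin pathway of worms, rose by 0.12 ± 0.02 (adjusted p = 0.0355), and Draxin, a ligand that binds netrin-1 and Dcc, fell by 0.62 ± 0.10 (adjusted p = 0.0193). Draxin had 2.09, 1.72, 1.73 and 2.08 CPM in heterozygous specimens and 3.08, 3.39, 2.45 and 2.76 CPM in wild-type specimens, without overlap. Between the stages in wild-type kidneys 13 of 47 rose and 22 fell, 74.5%, where 66.1% of all genes were called. The largest falls at E15.5 were those of Trim67 (-2.64), Dcc (-2.45) and Flrt1 (-1.90), and the largest rises those of Ntng2 (1.62), Unc5a (1.53) and Mcam (1.07), all on the log2 scale. Wild-type embryo 6 raised the E11.5 mean of several of them. Without it, Trim67 stood at -2.14 ± 0.37, Dcc at -2.0 ± 0.17 and Flrt1 at -1.87 ± 0.11, each still called, with Ntng1 (-1.89 ± 0.17) past Flrt1. Robo3 stood at -1.08 with all embryos (adjusted p = 0.366) and was called higher at E15.5 without embryo 6 (1.63 ± 0.45, adjusted p = 0.00313), the largest rise of the 47.

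**Figure D4:**
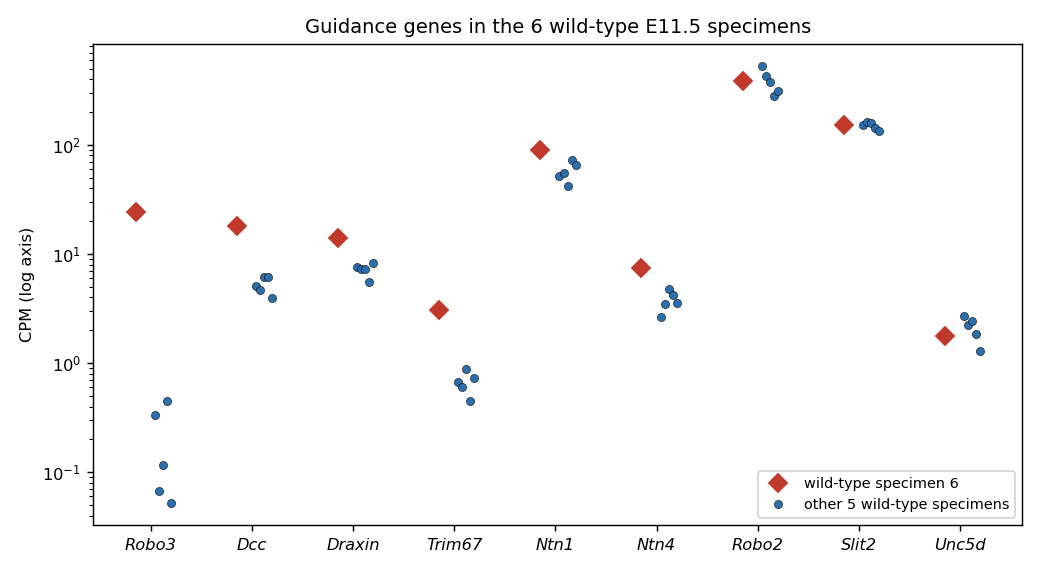
Level in CPM (log axis) of 9 guidance genes in wild-type embryo 6 (diamonds) and in the other 5 wild-type E11.5 embryos (circles). Embryo 6 stands above the others for Robo3, Dcc, Draxin, Trim67, Ntn1 and Ntn4 and lies within their range for Robo2, Slit2 and Unc5d.

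Wild-type embryo 6 differed from the rest of its group in several guidance genes. Robo3, the Robo receptor of commissural neurons, had 24.4 CPM in it and 0.0522 to 0.447 CPM in the other 5 wild-type embryos, and Dcc, the attractive netrin receptor, had 18.1 CPM in it and 3.91 to 6.18 CPM in the others. The summed neuron and glia markers of embryo 6, at 345 CPM, lay within the range of the group, as did its nephron progenitor sum (1647 CPM). Its stroma (3558 CPM), endothelium (415 CPM), macrophage (69.2 CPM) and adrenal and gonad (6.92 CPM) sums were the lowest of the 6. Highest of the 6 were its ureteric bud (694 CPM), skeletal muscle and cartilage (699 CPM), early nephron (520 CPM) and podocyte (710 CPM) sums. Without embryo 6, the knockout against wild-type values were -1.16 ± 0.11 for Robo2, 0.25 ± 0.07 for Slit2 and 1.58 ± 0.19 for Unc5d, and all kept their calls.

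**Figure D5:**
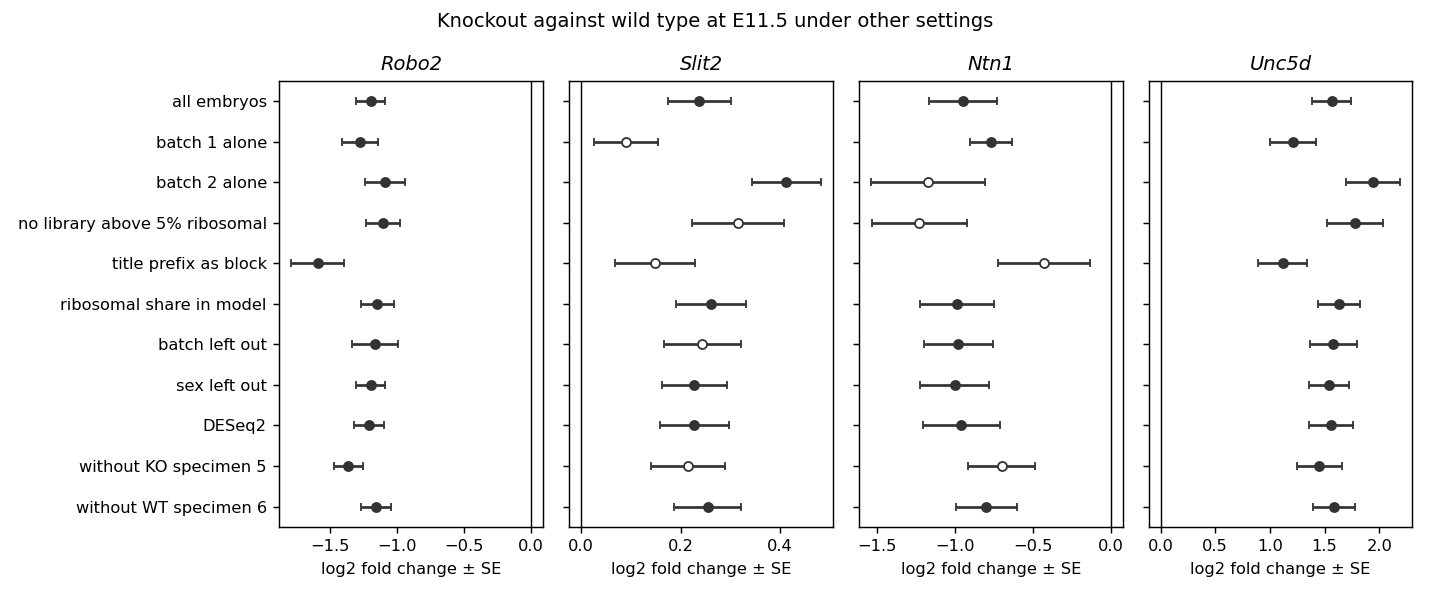
Log2 fold change ± SE of knockout against wild-type kidneys at E11.5 for Robo2, Slit2, Ntn1 and Unc5d with all embryos and with 10 other choices of libraries, model or test; filled points have an adjusted p under 0.05. Robo2 and Unc5d are filled in every row, Slit2 in 6 of 11 and Ntn1 in 7 of 11.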

How the data were processed

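Whole kidneys were snap-frozen, RNA was isolated with the RNeasy micro kit of Qiagen, and libraries followed standard Illumina methods, per the labels. The authors deposited raw read counts per gene symbol for 33 libraries with a gene length; STAR 2.4.0h1, featureCounts 1.4.6 and mm10 are named, per the submitters' processing notes, and their parameters, annotation and strandedness are not given in the sources used here. Runs of the same specimen were summed to 24 specimens: in 8 of 8 E15.5 specimens the runs correlated best with each other (0.146 to 0.529, against at most 0.0915). The titles of E15.5 runs summed as a specimen share no name, only the number after S, so their matching is an inference. The replicate number of the E11.5 titles equals the labelled batch. Of the 10 genes and the lists, all were chosen with earlier results of these data known.

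Counts were tested with edgeR 4.0.16 (quasi-likelihood F test, TMM scaling, filterByExpr with minimum count 10 and minimum total 15) in R 4.3.3 with limma 3.58.1. At E11.5 the terms were genotype, batch and sex, fitted to 16 embryos, the embryo run in both batches entering by its share of counts; at E15.5 they were genotype and sex; the stage comparison and the difference of heterozygous effects used all 24 specimens. Benjamini-Hochberg adjustment ran over all genes tested, with a threshold of 0.05. The standard error is the log2 fold change divided by the square root of F. CPM and CPM per kilobase were computed from the scaled library sizes and the deposited lengths, after summing the runs. Single values were compared by exact permutation of log2 CPM. Intervals and SE reflect counting error and the spread among specimens, nothing else. The text names all 10 genes, every pathway gene called between genotypes, the 3 largest stage changes each way, and the 3 genes most like each gene called between knockout and wild-type kidneys; genes beyond these were named after their values were seen. Alternatives were DESeq2 1.42.0, other size factors, no filter, sex or batch left out, the title letters as block, the ribosomal share as covariate, single batches, no library above 5% ribosomal counts, and each specimen left out. The single-batch fits between genotypes at E11.5 held no sex term. The test was checked on simulated data. Gene positions came from GENCODE vM21 (mm10) and promoter windows from RefSeq (GRCm38.p6), which held windows for 8 of the 10 genes.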

Additional observations from a re-analysis of the deposited data

Results flagged for a closer look

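In each group, of 4 to 6 specimens, the highest and the lowest specimen of the 10 guidance genes and of the 49 pathway genes were compared with the nearest neighbour, and 12 of 295 groups had a gap beyond Dixon's 95% critical value; chance gives about 1 in 20. None of the 10 guidance genes had such a gap in any of the 5 groups.

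Wild-type E11.5 embryo 6 was the highest of its group in 6 of the 12. Robo3 was at 24.4 CPM in it and at 0.447 CPM in the next highest wild-type embryo. Dcc was at 18.1 CPM in it and 6.18 CPM in the next, Draxin at 14.0 CPM and 8.35 CPM, and Srgap3, a relative of Srgap1, at 40.0 CPM and 23.5 CPM. Trim67 was at 3.08 CPM and 0.882 CPM, and Trim9, the relative of Trim67, at 3.61 CPM and 1.15 CPM.

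The other 6 were in other specimens. Knockout embryo 4 at E11.5 had the highest Dscaml1 level of its group at 0.337 CPM, with the next at 0.0596 CPM, both levels of few reads. Heterozygous E15.5 specimen 3 had the lowest Ntng1 level at 2.20 CPM, with the next lowest at 2.84 CPM. Wild-type E15.5 specimen 3 had the lowest Gpc1 level (170 CPM, next 184 CPM) and the lowest Maged1 level (624 CPM, next 664 CPM). Wild-type E15.5 specimen 2 had the highest Cdc42 level (564 CPM, next 550 CPM), and specimen 4 the lowest Trim67 level (0.137 CPM, next 0.164 CPM), again from few reads.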

How the results depend on the processing

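Of 1570 alternative values for the 10 genes in 6 comparisons, 1460 kept the sign and the side of the threshold, 19 lost a call, 9 gained one, 81 changed sign with no call and 1 changed sign with a call. The last was Unc5c in knockout against wild-type kidneys, at -0.47 with the title letters as block in place of batch (adjusted p = 0.0284). Robo2 kept its call in both knockout comparisons under all 11 alternatives and 16 left-out embryos, and Unc5d did so against wild type. The Ntn1 fall against wild type also missed the threshold with the title letters as block (-0.43, adjusted p = 0.416) and with the 6 libraries above 5% ribosomal counts removed (-1.23, adjusted p = 0.0679). Slit2 against wild type missed it without batch in the model (0.24, adjusted p = 0.139) and with the title letters (0.15, adjusted p = 0.311). Without the ribosomal libraries, which leaves 3 wild-type embryos, all of batch 2, and 4 knockout embryos, Slit2 also missed the threshold (0.31, adjusted p = 0.117). Unc5d against heterozygous kidneys missed it without batch (1.03, adjusted p = 0.0517) and with the title letters (0.49, adjusted p = 0.265). Ntn1 against heterozygous kidneys passed it with DESeq2 (adjusted p = 0.0499), with no filter (0.0218), with sex left out (0.0224) and without heterozygous embryo 5 (0.0237). It also passed in batch 1 alone (-1.28, adjusted p = 0.000517), as did Robo1 (-0.38, adjusted p = 0.0241). In batch 1 all knockout embryos were female and all heterozygous embryos male, and the single-batch fits at E11.5 held no sex term. Sex and genotype cannot be told apart in these batch 1 values. Unc5c against heterozygous kidneys passed the threshold with the title letters (-0.74, adjusted p = 0.0152). A single start of the titles, that of knockout embryos 2, 3 and 5, occurs on knockout embryos only. With the title letters as block those embryos are not set against another genotype. Under another start the knockout embryo was run in the other batch than its wild-type and heterozygous partners, and that fit had no batch term. The cause was not tested in any of these cases.

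The number of genes called over the whole table depended on batch, the replicate block of the E11.5 comparisons. Knockout against wild type (1153) gave 439 with no replicate block, 492 with the title letters, 405 and 202 in batch 1 and batch 2 alone, 349 without the ribosomal libraries and 717 to 1179 with an embryo left out. Knockout against heterozygous (609) gave 1029 with DESeq2, 154 with no block, 1033 and 70 in the batches, 299 without the ribosomal libraries and 221 to 768 with an embryo left out. Its batch 1 count sets female knockout against male heterozygous embryos. Heterozygous against wild type at E11.5 (11) gave 52 with DESeq2, 31 with no filter, 1 with no block, 7 with a separate batch level for the embryo run in both, 3 and 2 in the batches, 1 without the ribosomal libraries and 1 to 17 with an embryo left out. At E15.5 (104) it gave 43 in batch 2 alone and 66 to 79 with a specimen left out. The difference of the heterozygous effects (1) gave 3 with DESeq2, 6 with E11.5 batch 1 alone, which was chosen after seeing the data, and 1 with each specimen left out. The stage comparison stayed between 9108 and 11898. Depth limits the low genes most: Unc5d and Ntn4 rested on 25 to 156 counts in wild-type embryos.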
